A study of Canis lupus familiaris with 14 samples.

Results

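The bones of 7 dogs differed widely in CYTL1, a small secreted cytokine-like protein known from cartilage. The bone libraries compared here were selected on that gene: they were ranked by CYTL1 in CPM, the gene's counts scaled to a fixed library total, and the 3 highest, from dogs A, B and C, were set against the 3 lowest, from dogs D, E and F. The bone of dog G took the middle rank and belonged to neither side. These 7 bones make up the normal tissue of a series of 14 libraries, in which the polyadenylated RNA of bone and of osteosarcoma was sequenced from the same 7 dogs, 1 library for each tissue of each dog, so a spread between libraries is that between dogs and holds biological and technical variation together.

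Dog A was a Golden Retriever with a tumor of the left distal radius, dog B a Rottweiler with a tumor of the left distal femur, and dog C a Doberman Pinscher with a tumor of the left distal radius. On the other side, dog D was a Greyhound with a tumor of the left proximal humerus, dog E a "Great Pyranees" with a tumor of the left distal radius, and dog F a Golden Retriever with a tumor of the right distal radius. Dog G was a Greyhound with a tumor of the right distal tibia. All 7 bones were second phalanges (P2) taken from the amputated limb, away from the tumor, and no dog had yet had chemotherapy. Dogs E and G were spayed females and the others castrated males. Breed, sex and limb therefore do not separate the sides as a whole: a Golden Retriever stood on each, and the hindlimb dogs were B and G. No age is given in the labels, and the ages the study lists overlapped between the sides. A phalanx in the body carries articular cartilage, tendon and ligament insertions, periosteum, marrow fat, nerves and vessels next to bone itself. By the study's description marrow and cells not embedded in the matrix were removed from the bone before extraction. In bulk RNA fewer cells of a type and less RNA per cell cannot be told apart.

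Bone is built by osteoblasts, which lay down a collagen matrix and let it mineralize. Some become buried in it as osteocytes, which sense load and secrete sclerostin (SOST) and proteins such as MEPE and DMP1 that bear on mineral and phosphate. Cartilage covers the joint ends with a matrix of its own, and CHAD (chondroadherin), CLEC3A and the Wnt antagonist FRZB are known as its products. Schwann cells wrap the nerves of the periosteum and marrow with myelin that holds PMP22 and MBP.

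Total counts were 22564544 to 34479429 per bone library, of which that of dog B was the lowest and that of dog E the highest, and 18650945 to 32887213 per tumor library. The bone of dog E stood apart: its most abundant gene took 29.5% of its counts against 1.71% to 11.6% in the other 6 bones, which lowers the CPM of every other gene in it. Trimmed mean of M values (TMM) scaling, which corrects for such genes, reduced its library size to 0.624 of the total against 0.978 to 1.26 for the others. The bone of dog B had the most genes with a count, 23817 against 18504 to 21088, and was the only bone under the RNA integrity limit the study used. RNA integrity, as the study gives it, was also lower in each bone of dogs A, B and C than in any bone of dogs D, E and F, so it cannot be told apart from the side. Apart from dog B the gap between the sides was small, and the bone of dog G, on neither side, had the highest value. The defining osteocyte genes SOST, MEPE and DMP1 had counts in every bone, with summed CPM of the osteocyte list from 398 to 4980.

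CYTL1 (ENSCAFG00000015706) had 164.9, 164.6 and 222 CPM in the bones of dogs A, B and C. It had 0.0918, 0 and 0.591 CPM in the bones of dogs D, E and F, which are 3, 0 and 19 counts, and 13.6 CPM in the bone of dog G. The sides do not overlap because they were ranked on these values. The third highest bone, B, was 12.1 times dog G, and dog G was 23.0 times the highest of the low bones, F. The mean was 184 ± 32.9 CPM on the high side and 0.228 ± 0.318 CPM on the low side (SD, n = 3 each), a ratio of 807. The low mean, and with it this ratio, rests mostly on dog F. The highest bone, C, was 2416 times dog D, with a 95% counting interval of 827 to 11713 because dog D rests on 3 counts. With none in dog E, for which 3 counts would be 0.0870 CPM, the bone of dog C was at least 2549-fold higher. In tumors CYTL1 stayed between 0 and 0.201 CPM, and no tumor approached the bones of dogs A, B, C or G.

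CHAD, another gene known from cartilage, did not split the bones the same way. It had 999.5, 766 and 1809 CPM in the bones of dogs A, B and C, 133, 3312 and 375 CPM in those of D, E and F, and 763 CPM in G. The highest of the 7 bones was that of dog E, in which CYTL1 had no count, and the lowest was that of dog D, so the sides overlapped at both ends. The log2 ratio of the mean CPM of the high over the low side, with 0.5 CPM added to each mean, was -0.10, and -0.71 with TMM sizes. That value rests on dog E: without its bone the ratio was 2.23, with both remaining low bones below all 3 high ones. Since CHAD and CYTL1 part in dog E, the high side is called by its leading gene and given no tissue name.

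**Figure D1:**
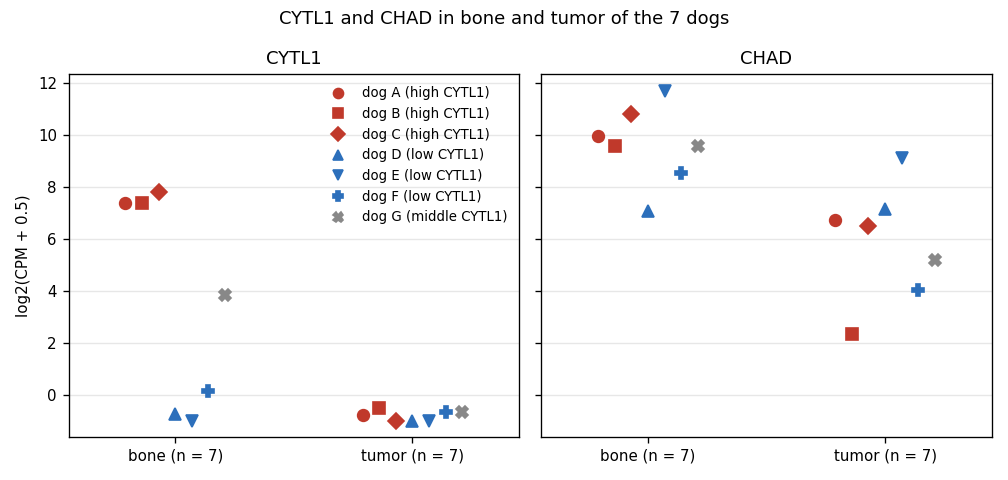
Levels of CYTL1 and CHAD as log2(CPM + 0.5) in the bone and the tumor of each dog, 1 point per library, colored by the side of the bone and with a marker for each dog. CYTL1 falls into 3 high bones, dog G and 3 low bones and is near the bottom of the axis in all tumors, whereas CHAD is highest in the bone of dog E on the low side.

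The question was then which other genes divided the same bones. Of 14239 genes with a mean of 1 CPM or more over the 7 bones, CYTL1 left out, 1084 had all 3 high-CYTL1 bones above all 3 low ones and 178 had them below. Requiring also a 2-fold difference of the means left 301 genes higher, 2.11% of those compared, and 50 lower, 0.351%. Because the bones were chosen on CYTL1 and these are the same bones, the counts describe the split and were not tested. RNA integrity was lower in each high-side bone, by a small margin except in dog B. With TMM sizes the counts were 266 higher and 86 lower, so that the higher genes made up 75.6% of both in place of 85.8%, and 237 of the higher and 44 of the lower genes were in both lists. The lower count turns on the bone of dog E: without it 355 genes were higher and 451 lower, or 530 and 230 with TMM sizes, in a comparison of 3 against 2 bones that is easier to meet. The median log2 ratio over all genes was 0.02, and -0.04 with TMM sizes.

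In the higher genes a single bone was most often the highest. It was that of dog B in 171 of the 301, that of C in 70 and that of A in 60. Among 48 genes in which the highest bone had at least 4 times the next, it was B in 45. The bone of dog B also had the lowest RNA integrity and the most detected genes, and their part in this pattern was not tested. Without that bone 348 genes were higher and 75 lower, and 263 of the 301 were still among the former. The omission of a bone cannot make a gene overlap, so only the 2-fold limit could remove any of the 301. Dog G lay strictly between the sides in 71 of the 301 genes, within or beyond the high side in 81 and within or beyond the low side in 149. The middle rank of dog G in CYTL1 was thus its rank in a minority of these genes. Among the 50 lower genes the bone of dog F was the highest in 30, and dog G lay between the sides in 13.

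Symbols pair with 2049 of the 14239 genes. The pairs come from tables of the comparison of tumor with bone and so favor genes that differ between these tissues. Among the 2049, 53 were higher, 2.59%, and 19 lower, 0.927%. Of the genes without a symbol, the first by log2 ratio in each direction were these. ENSCAFG00000029384 had 14.3, 451 and 74.4 CPM on the high side and 4.71, 6.44 and 0.778 CPM on the low side. ENSCAFG00000033531 had 3.33, 51.98 and 0.716 CPM on the high side and no count in the 3 low bones, at least 206-fold higher in the mean when each low bone is set at 3 counts. In the former the bone of dog B was far above the rest, and without it the log2 ratio of 5.33 was 3.32. For the latter the values were 5.26 and 2.34. Downward, ENSCAFG00000008653 had 0.131, 0.355 and 0.682 against 2.02, 4.09 and 12.7 CPM, and ENSCAFG00000003297 had 1.04, 1.11 and 1.43 against 17.8, 1.62 and 5.42 CPM. The former was highest in dog F, without which its log2 ratio of -2.93 was -1.999, and the latter in dog D, without which -2.37 became -1.25.

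Among the 15 named genes that were higher, CLEC3A had the largest log2 ratio. CLEC3A, a C-type lectin of cartilage matrix that is not in the cartilage list used below, had 33.5, 14.9 and 77.1 CPM in dogs A, B and C and 0.551, 0.261 and 5.91 CPM in D, E and F, and 8.54 CPM in G. The order of the 7 bones, from C, A and B through G to F, D and E, was that of CYTL1. The mean was 41.8 ± 31.9 against 2.24 ± 3.18 CPM, a log2 ratio of 3.95, which was 3.17 without dog C and 5.55 without dog F. FRZB, a secreted antagonist of Wnt ligands, had 117, 116 and 121 CPM on the high side, a spread of 2.31 CPM around 118. It had 44.4, 6.44 and 15.3 CPM on the low side and 48.9 CPM in G, with a log2 ratio of 2.39 that was 3.38 without dog D. The high bones were almost equal in FRZB whereas the low ones differed from each other by several times.

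ECRG4, which encodes the secreted peptide precursor augurin, had 363, 251 and 493 CPM on the high side, 69.9, 11.1 and 71.5 CPM on the low side and 94.9 CPM in G, a log2 ratio of 2.85. IL17B, a cytokine of the interleukin-17 family, had 13.8, 12.1 and 5.87 against 1.62, 0.29 and 1.99 CPM, and dog G, with 1.43 CPM, lay with the low side. SERPINA3, an acute phase protease inhibitor, had 20.9, 8.29 and 7.88 against 2.9998, 0 and 1.84 CPM. In SERPINA3 the highest bone was dog G with 37.04 CPM, above all of the high side. APOE, a lipid carrier made by macrophages among other cells, had 4793, 4310.4 and 2771 CPM against 1777, 1142 and 1649 CPM, a log2 ratio of 1.38, with dog G at 1998 CPM between the sides.

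A Schwann cell gene was higher as well. SOX10, the transcription factor that maintains the Schwann cell lineage, had 8.88, 12.9 and 7.09 against 2.66, 1.86 and 3.27 CPM, a log2 ratio of 1.71, with G at 5.21 CPM. The highest bone in SOX10 was that of dog B and the lowest that of dog E, with G above the low side and below the high one. COL20A1, a minor collagen associated with fibrils, had 8.19, 10.99 and 7.91 against 2.23, 1.83 and 2.71 CPM, and dog G, at 2.69 CPM, lay within the low side. OLFM2, a secreted glycoprotein of the olfactomedin family, had 78.8, 51.8 and 57.8 against 14.6, 45.998 and 12.98 CPM, a log2 ratio of 1.34. Dog E came close to the high side in OLFM2 and overlapped with it at TMM sizes, and without dog E the ratio was 2.15.

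Homeobox and other genes completed the 15. BARX1, a homeobox factor of developing joints and face, had 14.3, 12.4 and 9.93 against 1.19, 3.19 and 3.33 CPM, and G had 11.5 CPM, within the high side. LHX8, a LIM homeobox factor, had 6.56, 5.94 and 5.66 against 1.68, 0.783 and 3.55 CPM, with G at 1.29 CPM, within the low side. ASS1, argininosuccinate synthase of the urea and arginine pathway, had 26.1, 28.2 and 30.9 against 7.29, 2.78 and 12.7 CPM, and G was the highest at 43.2 CPM. The remaining 3 were less clear cut. UPK3A, a uroplakin of the bladder lining, had no more than 9.04 CPM in any bone, with a log2 ratio of 2.21 that was 1.603 without dog B. PAK6, a p21-activated kinase, had 13.5, 22.6 and 18.1 against 3.09, 2.06 and 13.01 CPM, so that dog F almost met dog A, and its log2 ratio of 1.503 was 2.59 without dog F. ACTA1, the actin of skeletal muscle, had 23.5, 17.8 and 17.7 against 16.4, 0 and 1.06 CPM, with dog D at the edge of the high side and no count in dog E. Its log2 ratio was 1.67, or 4.29 without dog D, and it was the 1 measured gene of the skeletal muscle list.

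**Figure D2:**
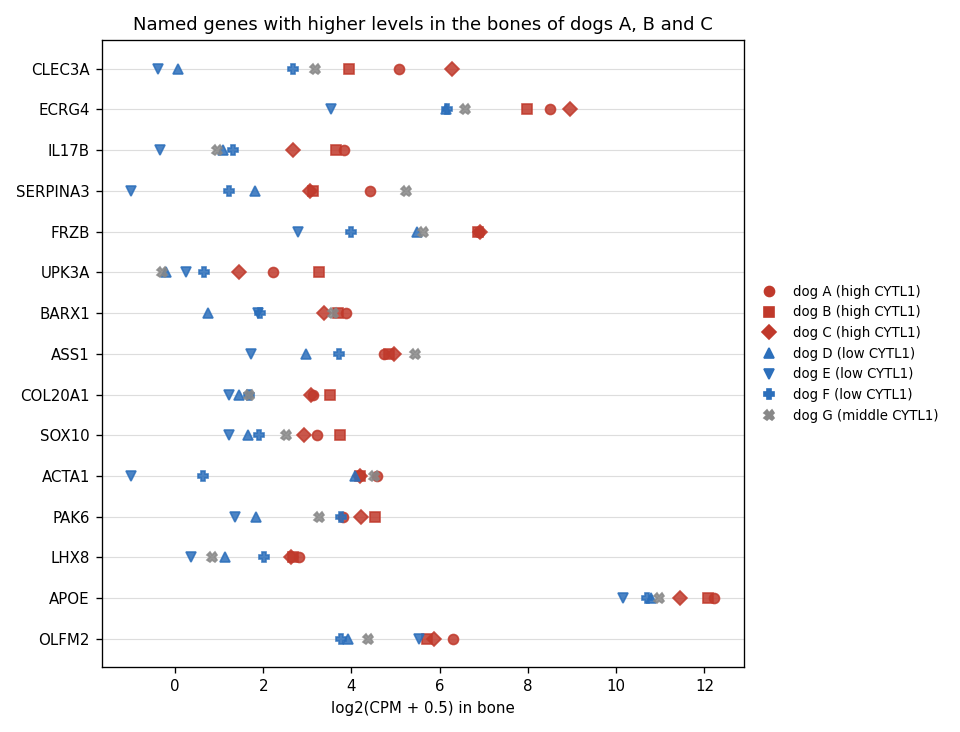
Levels of the 15 named genes that were higher in the bones of dogs A, B and C, as log2(CPM + 0.5) on the horizontal axis, 1 point per bone library with a marker for each dog. Within each row the 3 high-CYTL1 bones lie to the right of the 3 low ones, and dog G falls on either side or between, as for SERPINA3, where it is the highest, and IL17B, where it is with the low bones.

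Genes of osteocytes and bone matrix were among the 15 named genes that were lower. MEPE, a matrix phosphoglycoprotein of osteocytes, had 10.8, 22.1 and 225 CPM in dogs A, B and C and 506, 1323 and 1767 CPM in D, E and F, with 139 CPM in G. The means were 85.9 ± 120.5 and 1199 ± 639.8 CPM, a log2 ratio of -3.79, and dog C was far above A and B on its side, so that the ratio was -6.15 without it. PHEX, a cell surface endopeptidase whose loss causes phosphate wasting, had 10.4, 6.56 and 15.2 against 61.4, 39.9 and 47.7 CPM, a log2 ratio of -2.16, and G had 14.02 CPM, with the high-CYTL1 bones. BMP3, a bone morphogenetic protein made in bone matrix that acts against the bone-forming members of its family, had 5.19, 5.23 and 12.1 against 18.1, 15.02 and 68.2 CPM. Its log2 ratio was -2.10 and fell in size to -1.09 without dog F, the highest bone.

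SOST and DMP1, which were listed with MEPE as osteocyte genes, had lower means on the high side but overlapped. SOST, the secreted Wnt inhibitor sclerostin, had 24.1, 30.6 and 496 CPM in dogs A, B and C and 416, 1146 and 1569 CPM in D, E and F, with 142 CPM in G. Dogs A and B were the lowest of the 7, and dog C lay above dog D. DMP1, dentin matrix protein 1, had 229, 299.9 and 469 against 486, 469 and 1457 CPM, and dogs C and E differed by less than 1 CPM. The log2 ratio of SOST was -2.50, or -5.23 without dog C, and that of DMP1 was -1.27, or -0.52 without dog F. Several other osteocyte genes had values near 0. KCNK2, IRX5 and NPY had log2 ratios of -0.12, -0.02 and 0.20. In NPY dog E, at 56.8 CPM, lay above the high side, and dogs D and F, at 18.1 and 22.3 CPM, lay below it. The NPY ratio was -0.22 with TMM sizes. PTPRZ1, a receptor phosphatase, was higher on the high side at 6.63, 6.91 and 14.6 against 1.93, 6.44 and 5.7 CPM, which overlapped with TMM sizes.

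The largest decrease among genes with a symbol was that of SCG2, secretogranin II, a precursor protein of secretory granules in neuroendocrine cells. It had 0.0653, 0 and 1.33 CPM on the high side and 23.9, 14.5 and 54.3 CPM on the low side, with 1.35 CPM in G. The log2 ratio was -5.02, or -5.88 without dog C and -4.35 without dog F, and dog G lay just above the high-CYTL1 bones. MYOZ2, a sarcomeric Z-disc protein that binds calcineurin, had 0.131, 1.06 and 2.46 against 3.89, 9.08 and 11.2 CPM, and G had 1.05 CPM. Its log2 ratio of -2.32 was -2.96 without dog C. DCC, the netrin receptor, had 2.61, 1.46 and 3.04 against 6.76, 4.23 and 14.4 CPM, and PCDH20, a protocadherin, had 2.12, 1.42 and 1.71 against 8.85, 3.05 and 7.999 CPM. In all of these except PCDH20 the bone of dog F was the highest.

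The other lower genes differed by less than 3-fold in the mean. ACKR4, a receptor that scavenges chemokines, had 6.79, 5.67 and 5.83 against 15.2, 17.5 and 15.2 CPM, with G between at 12.2 CPM. ADM, the vasodilator peptide adrenomedullin, had 21.6, 27.7 and 19.99 against 50.4, 36.9 and 65.2 CPM, and ADAMTSL1 had 17.6, 15.1 and 17.8 against 27.8, 36.6 and 38.4 CPM. With TMM sizes the log2 ratio of ACKR4 was -1.53 in place of -1.32, and that of ADAMTSL1 -1.21 in place of -1.01. FOLH1B had a log2 ratio of -1.03 and EGR2, an immediate early zinc finger factor, one of -1.48 that was -0.78 without dog F, the highest bone. MAGI2 and AK5, at -1.24 and -1.12, overlapped between the sides with TMM sizes, and AK5 was -0.58 without dog F. ADM, FOLH1B and ADAMTSL1 came to between -0.90 and -0.96 when some single bones were left out, just under 2-fold. LTBP1, which holds latent TGF-beta in the matrix, did not overlap but missed the 2-fold limit, with means of 423 ± 66.3 and 811 ± 317 CPM (SD, n = 3 each), and dogs A and E differed by less than 3 CPM.

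**Figure D3:**
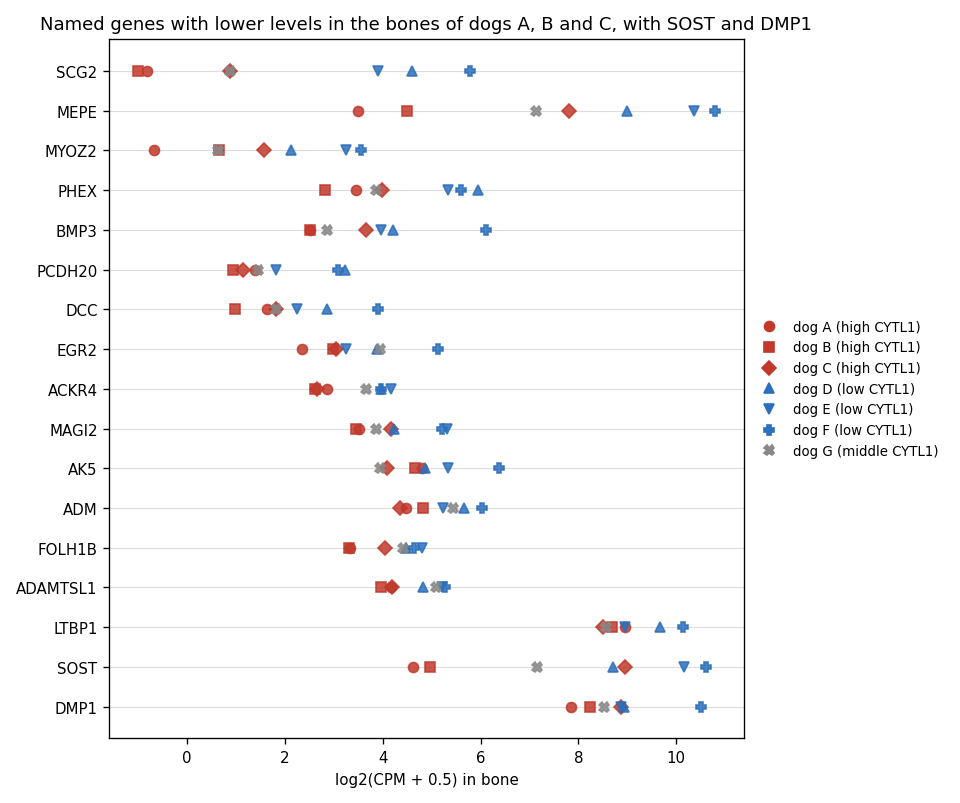
Levels of the 15 named genes that were lower in the bones of dogs A, B and C, followed by the osteocyte genes SOST and DMP1, as log2(CPM + 0.5) on the horizontal axis, 1 point per bone library with a marker for each dog. MEPE and PHEX separate the sides, while in SOST dog C lies among the low-CYTL1 bones and in DMP1 dogs C, D and E coincide.

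Whole marker lists were then described, to show what else in the pieces moved with the side, and each count stands beside the 2.59% higher and 0.927% lower among genes with a symbol. Of 10 measured cartilage genes of 36 listed, FRZB was the 1 higher and none was lower, and the median log2 ratio was 0.11, or -0.10 without dog E. MATN3, a matrilin of growth and joint cartilage, had 25.3, 23.6 and 25.4 CPM on the high side and 8.05, 27.5 and 2.65 CPM on the low side, so dog E exceeded the high side. MIA, a secreted protein of chondrocytes, had 6.66, 7.67 and 10.8 against 2.94, 4.96 and 5.04 CPM without overlap, at less than 2-fold. In the opposite direction the collagen COL9A1 had 15.02, 13.96 and 15.3 against 26.4, 17.3 and 20.9 CPM, also without overlap and at less than 2-fold. The collagen COL11A1 had a log2 ratio of -0.51, and CILP, of the mid-zone of joint cartilage, one of 0.42. The summed CPM of the list ran from 1126 to 2234 on the high side and from 473 to 3552 on the low side. That overlap rests on dog E, without which the highest sum of the low side was 642 CPM. COL2A1, ACAN and SOX9 could not be paired with an identifier and were not analysed here.

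Of 7 measured Schwann cell genes, SOX10 was the 1 higher, none was lower, and 6 had a log2 ratio above 0, with a median of 0.54 against 0.01 over all genes with a symbol, and of 0.11 without dog A to 0.77 without dog D when 1 bone was left out. MBP, a myelin protein, had 29.5, 27.2 and 18.8 against 15.6, 6.32 and 17.4 CPM without overlap, at less than 2-fold. S100B had 33.9, 18.5 and 11.5 against 30.5, 2.15 and 9.06 CPM, in which dog D exceeded dogs B and C. The 1 gene with a ratio below 0 was PMP22, at -0.11, a gene that other cells also express. The summed list ran from 270 to 315 CPM on the high side and from 222 to 307 on the low side, so the sum overlapped.

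Of 10 measured osteocyte genes 1 was higher, PTPRZ1, and 2 lower, MEPE and PHEX, with a median of -0.41 that stayed between -0.65 and -0.28 without any 1 of the 6 bones. Their sum did not overlap, at 398 to 1324 CPM on the high side and 1562 to 4980 CPM on the low side, and dog G had 729 CPM. Most of the sum in every bone was SOST, MEPE and DMP1, of which SOST and DMP1 overlapped between the sides. The osteoblast list, with BGLAP (osteocalcin) and SPP1 (osteopontin), had none of 5 genes apart and a median of 0.08, or -0.08 without dog A. In the osteoclast list none of 7 was apart, the median was 0.50, or -0.18 without dog A, the highest bone. ACP5, the tartrate-resistant acid phosphatase, had 5022, 1407 and 2015 CPM against 1544, 1256 and 2061 CPM.

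Adipocyte genes differed widely within the low side. None of 13 was apart, although 12 had a log2 ratio below 0 and the median was -0.72. Dog D had the highest summed level of the 7 bones, 4570 CPM, dog E the lowest, 459 CPM, and the high side lay between at 755 to 1738 CPM. PLIN1, the perilipin of fat droplets, had 209.6, 77.9 and 63.2 CPM against 518, 15.1 and 33.6 CPM. The sign of the list turns on dog D: without its bone all 13 ratios were above 0 and the median was 1.34.

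**Figure D4:**
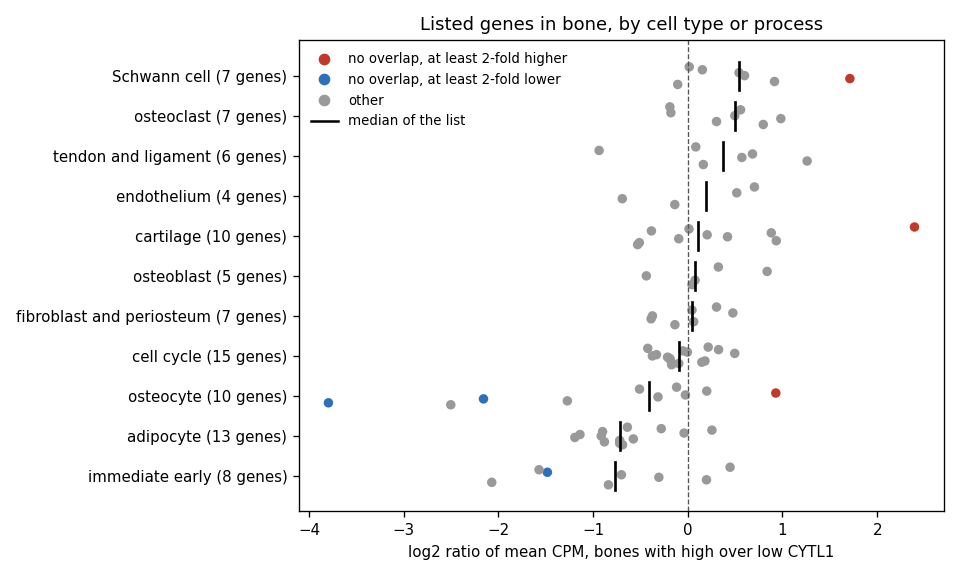
Log2 ratio of the mean CPM of the bones with high over those with low CYTL1 (0.5 CPM added to both means) for each measured gene of the 11 lists with 4 or more measured genes, with a vertical bar at the median of the list. Red and blue points are genes without overlap and at least 2-fold apart, 1 in the Schwann cell list, 1 in the cartilage list, 3 in the osteocyte list and 1 in the immediate early list.

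No gene was apart among 6 tendon and ligament genes, 7 of fibroblasts and periosteum, 2 of synovium, 4 of endothelium, 2 of the erythroid line, 15 of the cell cycle and 2 of limb position, nor in the single measured genes of smooth muscle, keratinocytes and neutrophils. The medians of the tendon and fibroblast lists were 0.37 and 0.04. Both turned on single bones, the former running from 0.005 without dog E to 0.71 without dog D and the latter from -0.36 to 0.46 without the same dogs. In MYOC, ANGPTL7 and PRELP of the former dog E was the lowest by far. Of 8 immediate early genes, which respond to handling and stimulation within minutes, EGR2 was lower and the median was -0.77, or 0.01 without dog F. FOSB had 33.8, 118 and 84.1 against 347, 3.34 and 646 CPM, lowest in dog E and highest in F, and EGR3 was also apart with TMM sizes. No gene of the T cell list or of the B and plasma cell list could be paired with an identifier, and the 1 paired macrophage gene was under 1 CPM. PITX1, which specifies the hindlimb, had a mean under 1 CPM and was not compared, with 0.392, 2.08 and 0.375 CPM in the bones of A, B and C, 0, 0.058 and 0.0623 CPM in D, E and F and 0.38 CPM in G. The bone of dog B, from a hindlimb, was the highest in it. That of dog G, the other hindlimb dog, was close to those of dogs A and C.

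Whether tumors of the same dogs divide the same way can be tested, since their libraries were not used to rank the dogs. Tumor RNA was extracted by another method than bone RNA, which cannot be told apart from the tissue but does not differ between the sides. In the tumor of dog E, as in its bone, the most abundant gene took the largest share, 26.3% of counts. The tumor of dog A had the lowest RNA integrity of the tumors, as the study gives it. Between the tumors of dogs A, B and C and those of D, E and F, edgeR's quasi-likelihood test called 0 of 14329 genes at an adjusted p under 0.05, 0% of those tested. The smallest adjusted p was 0.967, and 417 genes had an unadjusted p under 0.05. Without the tumor of dog A the edgeR test also called 0 genes, with a smallest adjusted p of 0.550. With all of these tumors the DESeq2 Wald test called 11, of which 7 were higher and 4 lower. Of these 11, none was a bone-higher gene and 1, ENSCAFG00000008653, was bone-lower. Described by the same rule as bone, 150 genes were apart and 2-fold higher in the tumors of dogs A, B and C, 1.05%, and 89 lower, 0.621%. Of the 301 bone-higher genes 198 reached 1 CPM in tumors, of which 4 were apart and higher and 1 apart and lower. Of the 50 bone-lower genes 41 reached it, of which 5 were apart and lower, 12.2%, and none was higher. That count was 2 with median-of-ratios sizes in tumors and 5 to 9 when a tumor was left out, where the share of all genes apart and lower rose to between 0.900% and 6.43%.

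The sign of the difference was compared next. A tumor log2 ratio above 0 was found for 148 of the 198 bone-higher genes, 74.7%, and for 34.1% of the 41 bone-lower genes, against 47.0% of all genes in tumors. Leaving out the tumor of dog B lowered the former share to 53.5%, beside 36.6% of all genes. Of the bone-lower genes 65.9% had a tumor log2 ratio below 0, against 52.9% of all genes, but without the tumor of dog E the shares were 56.1% and 62.6%, the other way round. An unadjusted p under 0.05 was found for 9 of the 198, 4.55%, for 8 of the 41, 19.5%, and for 2.91% of all genes. The bone and the tumor of a dog share the animal, and genes share their regulation, so these shares are a description.

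Of the 15 named genes of each direction, 9 of the higher and 11 of the lower had a mean of 1 CPM or more in tumors. Of those 9, 4 had a tumor log2 ratio above 0 and 5 below, and of the 11, 5 had one above and 6 below. The remaining genes had a mean under 1 CPM in tumors and no sign was read from them. In some a single tumor lay well above that mean, as did that of dog A in SERPINA3, with 4.14 CPM. APOE was the 1 higher gene apart in both tissues, with 935, 2047 and 585 CPM in the tumors of A, B and C and 115, 316 and 62.4 CPM in D, E and F, a log2 ratio of 2.85 and no overlap. Without dog E it was 3.74, and without dog B 2.205. BMP3 was the 1 lower gene apart in both, with 1.04, 0.101 and 0.429 against 7.82, 1.92 and 1.55 CPM in tumors, a log2 ratio of -2.06 that was -1.12 without dog D. The other genes apart in both tissues, which were named after their values were seen, were KCNF1, a potassium channel subunit, ASIP, the agouti signaling protein of coat color, and 5 without a symbol. KCNF1 was higher in both, with 4.21, 2.61 and 2.29 against 0.888, 0.783 and 1.96 CPM in bone and 14.6, 19.4 and 3.43 against 1.41, 2.13 and 3.3 CPM in tumor. ASIP was lower in both, with 0.686, 0.222 and 0.375 against 2.63, 3.25 and 2.21 CPM in bone and 0, 0.0671 and 0 against 0.118, 12.6 and 0.137 CPM in tumor. Its tumor log2 ratio of -3.20 rests on dog E and was -0.26 without it, the others on that side having a few counts each, and dog G, with 4.71 CPM in bone and 14.4 CPM in tumor, was the highest in both tissues.

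In many of the named genes the tumors lay below the bones. For 11 of the 15 higher genes all 7 tumors lay below the lowest of the high-CYTL1 bones, with the exceptions of BARX1, ACTA1, PAK6 and LHX8, and over all genes compared in bone this held for 7.43%. CLEC3A reached at most 0.487 CPM in a tumor and COL20A1 0.101 CPM. For 11 of the 15 lower genes all tumors lay below the lowest of the low-CYTL1 bones, with the exceptions of DCC, EGR2, MAGI2 and LTBP1, against 2.32% of all genes. These genes were chosen for high values on that side and their symbols favor genes that differ between tumor and bone, so nothing is read from the counts. MEPE was under 2 CPM in 6 tumors and had 94.9 CPM in that of dog E, and SCG2 was at or under 0.0671 CPM in all 7.

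**Figure D5:**
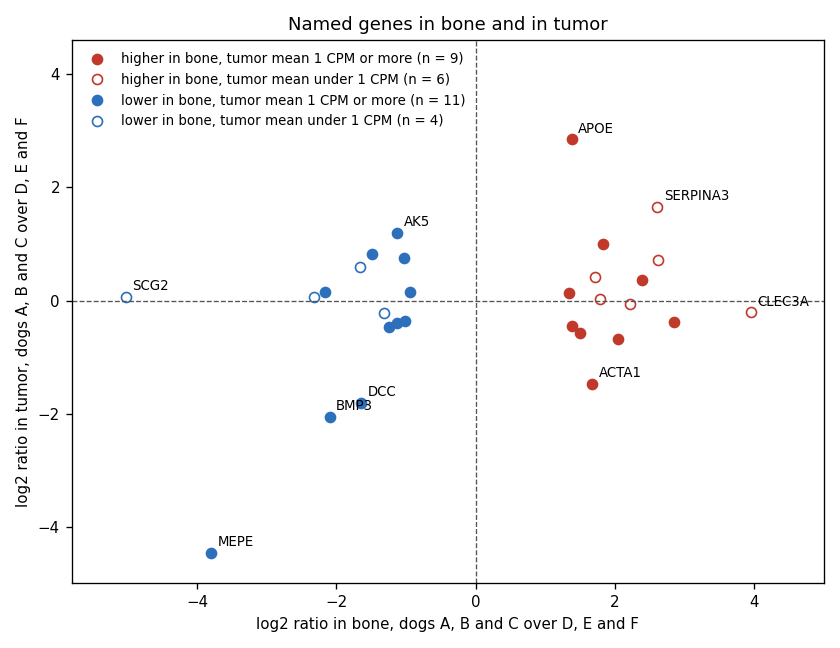
Log2 ratio of the mean CPM of dogs A, B and C over D, E and F (0.5 CPM added to both means) in bone, on the horizontal axis, and in tumor, on the vertical axis, for the 30 named genes. The sign in bone is fixed by the choice of genes, and open points are the 6 higher and 4 lower genes with a mean under 1 CPM in tumors, from which no sign is read. Of the filled points 4 of 9 higher and 5 of 11 lower genes lie above 0 in tumor, with APOE at 2.85, BMP3 at -2.06 and MEPE, which overlaps in tumors and rests on dog E, at -4.46.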

How the data were processed

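The members and gene lists were chosen with earlier results of these data known. The authors extracted bone and tumor RNA by different methods, sequenced polyadenylated RNA and, per the labels and their processing notes, used FastQC 0.10.1, Trimmomatic 0.39, HISAT2 2.2.1, StringTie 1.3.3 and the CanFam3.1 genome. They deposited raw counts per Ensembl gene, 1 column per library, without normalization. All 14 columns were matched to a library by name. Strand and multi-mapping settings are not given in the sources used here, so antisense genes and near-identical copies are uncertain.

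CPM was a gene's count over its library's total count of 18650945 to 34479429, times 1e+06. CYTL1 in CPM ranked the 7 bones. Genes with a mean of 1 CPM or more were compared between the 3 highest and the 3 lowest. A gene was taken as apart when all 3 values of a side exceeded all 3 of the other and the means differed at least 2-fold. Log2 ratios had 0.5 CPM added to both means. No test was run on bone, since the ranking used it. Tumors of the same 6 dogs were tested with edgeR 4.0.16 (R 4.3.3, quasi-likelihood, TMM, Benjamini-Hochberg adjusted p under 0.05), tested on simulated data, and with DESeq2 1.42.0. Intervals and limits from 3 counts cover counting error only.

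Genes given by name are CYTL1, CHAD, list members with a mean of 1 CPM or more and, in each direction, the 15 with a symbol and the largest log2 ratio among those that do not overlap and have a mean of 5 CPM or more on the higher side, plus 2 identifiers without a symbol. ENSCAFG identifiers had no name in the tables used for the others. The study's supplementary tables gave a symbol to 2289 of 30951 identifiers used by name, and a few genes are not reported here. KCNF1, ASIP and PITX1 (a list member under 1 CPM) are outside this rule and were picked with their values known. Coordinates and sequences were not used here, and the 21 lists are described without set tests. Alternatives covered scaling, the minimum CPM, the fold, the added CPM, the test and the omission of each library.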

Additional observations from a re-analysis of the deposited data

Results flagged for a closer look

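For 78 sets of 7 libraries (the named genes in bone and in tumor as log2(CPM + 0.5), the total counts, the share of the most abundant gene and the number of genes with a count), the highest or the lowest library was compared with the others by Dixon's gap, which chance passes in about 1 of 20 sets. In 4 sets 1 library stood apart. That rate does not allow for genes picked because they split the bones, so nothing is read from the number. The most abundant gene took 29.5% of the counts of the bone of dog E, far above the other 6 bones. In tumors, MEPE stood apart in dog E at 6.58, DCC in dog F at 3.42 and SERPINA3 in dog A at 2.21 on the log2(CPM + 0.5) scale. In CPM, MEPE had 94.9 in the tumor of dog E and at most 1.39 in the others, DCC had 10.2 in that of dog F and at most 1.02 in the others, and SERPINA3 had 4.14 in that of dog A and at most 0.540 in the others. No explanation was tested.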

How the results depend on the processing

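The counts in bone moved with most choices. The 301 higher and 50 lower genes became 266 and 86 with TMM sizes, 271 and 84 with DESeq2 size factors, 1414 and 149 without the filter on low counts, 94 and 29 at a mean of 5 CPM or more, and 127 and 11 at 4-fold. Leaving out each bone in turn gave 348 to 574 higher and 39 to 451 lower genes, where 451 is without dog E and 574 without dog D. In part this follows from the construction, as fewer bones overlap less. With TMM sizes and a bone left out, both chosen after seeing the data, 322 were higher and 118 lower without dog B, and 530 and 230 without dog E.

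Of 324 recomputed log2 ratios of 36 genes, 306 moved by less than the spread within sides and 18 by more. None of a gene called apart changed sign. For such a gene the omission of a bone or another added CPM cannot change it, so only the scalings could. CHAD, which was not called apart, went from -0.10 to 0.02 without dog A, 0.14 without dog B and 2.23 without dog E. The CYTL1 ratio of 7.98 was 9.13 with 0.1 CPM added in place of 0.5. In tumors edgeR called 0 genes under every alternative and without each tumor, and the DESeq2 Wald test called 11. The cause of that difference was not tested. The genes apart in both tissues were checked after seeing the data. The 5 lower genes became 2 with median-of-ratios sizes in tumors and the 4 higher ones remained 4 in number, and leaving out each tumor gave 5 to 9 and 7 to 24. Over all genes the shares moved as well, from 0.621% to between 0.900% and 6.43% for lower and from 1.05% to between 1.70% and 5.62% for higher. The share of bone-higher genes with a tumor ratio above 0 ran from 53.5% without dog B to 77.3% without dog D, beside 36.6% and 57.7% of all genes, and it was 73.7% without dog A, beside 61.5%.

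No paired analysis was possible because each dog falls on 1 side only, so a dog block takes up the whole contrast. With 3 dogs a side, 1 library decides many values, genes under 1 CPM were not compared, and 12190 of the 14239 genes carry no symbol.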
